A study of Mus musculus with 20 samples.

Results

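Coenzyme Q biosynthesis was read as the mRNA of 10 genes, Pdss1, Pdss2, Coq2, Coq3, Coq4, Coq5, Coq6, Coq7, Coq8a and Coq9, out of 28632 genes in a table of RNA sequencing counts from mouse pancreatic islets. The members were chosen by name, through their Ensembl gene IDs, and all 10 were found. All 10 also passed the usual edgeR filter on low counts, which 15267 genes passed. The 20 libraries came from 12-week-old female and male mice on the C57BL/6N background. They were 6 Ctrl (3 female, 3 male), 4 β-Mfn1KO (3 female, 1 male), 5 β-Mfn2KO (2 female, 3 male) and 5 β-Mfn1/2DKO libraries (2 female, 3 male). Mfn1 and Mfn2 encode the mitofusins, the proteins that fuse mitochondrial outer membranes. The β-Mfn1KO mice were homozygous for a floxed exon of Mfn1, the β-Mfn2KO mice for a floxed exon of Mfn2, and the β-Mfn1/2DKO mice for both, each with Ins1-Cre, a recombinase expressed from the Ins1 locus in β-cells. Ctrl mice are wild type by their labels. By the study's methods they are a pool of Ins1-Cre carriers with no floxed allele and of floxed mice with no Cre. Islets were isolated with collagenase and cultured for a day before RNA was taken, so each library holds RNA of α-, δ- and other islet cells in which Ins1-Cre was not active. Fewer cells of a type and less RNA per cell cannot be told apart in such samples. In separate, slightly younger mice of these genotypes the study found no significant difference in pancreatic β-cell mass.

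Coenzyme Q (CoQ, ubiquinone) is the lipid that carries electrons through the inner mitochondrial membrane, from complexes I and II and several other dehydrogenases to complex III. The cell makes it in mitochondria: a polyprenyl tail from the mevalonate pathway is joined to a ring derived from tyrosine, and the ring is then hydroxylated, decarboxylated and methylated by enzymes that sit together in a complex on the inner membrane. Pancreatic β-cells depend on mitochondrial oxidation for glucose-stimulated insulin release. Pdss1 and Pdss2 form the synthase that makes the tail, and Coq2 joins the tail to the ring. Coq3 and Coq5 are the methyltransferases of the ring, and Coq6 and Coq7 are its hydroxylases. Coq4, Coq9, a lipid-binding partner of Coq7, and Coq8a, an atypical kinase-like protein, act in or on the complex.

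Library totals were 12.4 to 20.3 M (mega) counts in Ctrl, 15.7 to 16.7 M in β-Mfn1KO, 15.1 to 59.5 M in β-Mfn2KO and 65.5 to 122.9 M in β-Mfn1/2DKO, so every β-Mfn1/2DKO library was deeper than any other. The targets followed the labels: against Ctrl, the log2 fold change of Mfn1 was −1.31 in β-Mfn1KO (adjusted p = 6.6e-07) and −1.07 in β-Mfn1/2DKO (adjusted p = 6.3e-08), and that of Mfn2 was −1.15 in β-Mfn2KO (adjusted p = 1.1e-08) and −0.75 in β-Mfn1/2DKO (adjusted p = 3.3e-07). Among cell type markers, all 10 β-cell genes were lower in β-Mfn1/2DKO and together took up 6.57 to 9.62% of normalized counts, against 14.1 to 21.9% in Ctrl. Ins1, the locus that carries Cre in the knockouts, is 1 of these genes. Its mean was 1444000 normalized counts in Ctrl, 817800 in β-Mfn1KO, 753700 in β-Mfn2KO and 238300 in β-Mfn1/2DKO. The part of the Cre allele in these values was not tested. All 7 endothelial markers were higher in β-Mfn1/2DKO (0.0215 to 0.0343%, against 0.0125 to 0.0189%), as were 12 of 14 acinar markers, which took up 0.0296 to 0.174% of counts in Ctrl and 0.0481 to 4.31% in β-Mfn1/2DKO, with 1.77% and 4.31% in replicates 4 and 5. Of the other lists, 1 of 5 α-cell, 2 of 5 duct and 1 of 5 stellate markers were higher, 1 of 6 macrophage markers was lower, and 0 of 3 δ-cell markers were called, nor was Ppy, the marker of PP cells. The defining hormone genes Ins1, Ins2, Gcg, Sst and Ppy were present in all groups, and no marker was at 0 throughout a group. The part of these shifts in the CoQ values was not tested, other than by the alternatives named beside them.

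In Ctrl islets the 10 mRNAs differed widely in level. Per kilobase of exon, Coq2 had 1032 ± 38.4 normalized counts (SD, n = 6), at percentile 88.5 of the expressed genes, and Coq9 had 673 ± 39.3, at percentile 81.5. Next came Coq5 with 332 ± 30.3 per kilobase, Coq8a with 253 ± 40.9, Coq6 with 194 ± 34.7, Coq7 with 127 ± 12.2 and Coq4 with 109 ± 11.3. The lowest levels were those of Coq3 (63.6 ± 10.1 per kilobase), Pdss2 (56.8 ± 6.39) and Pdss1 (22.8 ± 4.01, percentile 15.8). The ranges of Ctrl libraries overlapped between Coq8a and its neighbours Coq5 and Coq6, between Coq6 and Coq7, between Coq7 and Coq4, and between Coq3 and Pdss2. Those of the other neighbours in this order did not overlap. The prenyltransferase that joins tail and ring thus had the most mRNA of the pathway in islets, and the catalytic subunit of the tail synthase the least. Raw counts were between 22 and 313 for Pdss1 and between 46 and 776 for Coq3, the sparsest members, and between 737 and 10413 for Coq2.

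In β-Mfn1/2DKO islets, 3 of the 10 mRNAs were higher than in Ctrl (Coq2, Coq3 and Coq5) and 0 were lower (edgeR's quasi-likelihood fit, with an adjusted p below 0.05). Over all genes tested, 9.59% were higher at that threshold, and 17.3% of the expressed genes were. None of the changes passed a 1.5-fold limit, which 5.21% of all genes did in either direction with an adjusted p under 0.05. The members' log2 fold changes ran from −0.06 to 0.45 with a median of 0.17, beside 0.06 over all genes tested and 0.04 over expressed genes, and 7 of 10 were above 0. The counts below are normalized counts, that is, counts scaled by TMM to the mean effective library size, in the order of the replicate numbers.

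**Figure D1:**
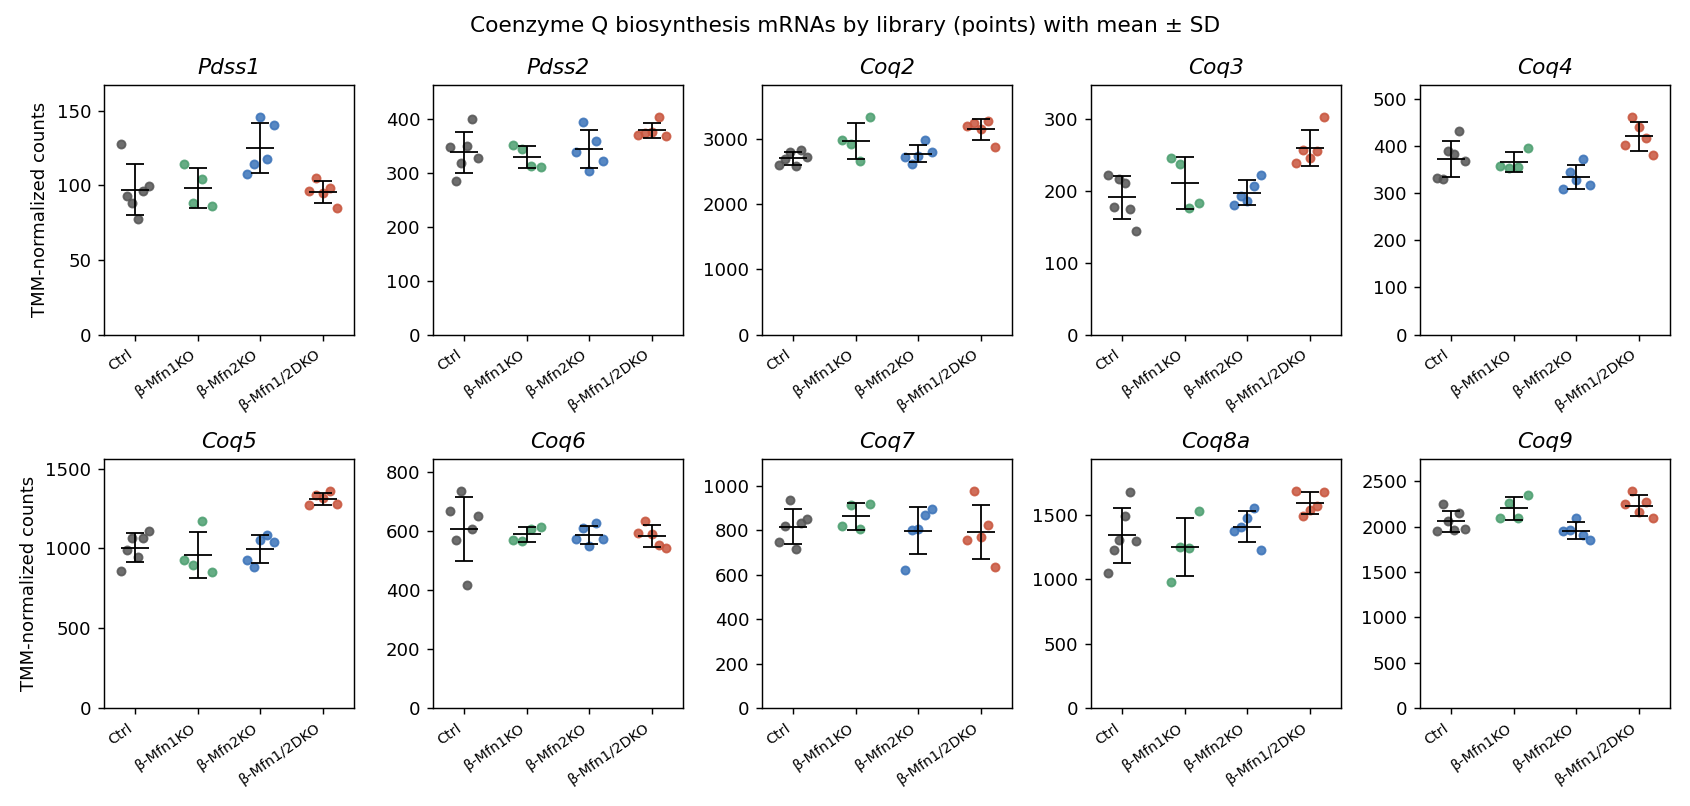
Normalized counts (y axis from 0, TMM-scaled) of each of the 10 genes in every library (points) of the 4 genotypes (x axis), with the mean ± SD of each group as black bars. The 5 β-Mfn1/2DKO libraries lie above all other libraries for Coq5 (1273 to 1358 against 851 to 1172) and overlap the range of the other libraries for every other gene.

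The tail synthase did not pass the test in either subunit. Pdss1, which encodes the catalytic subunit (ENSMUSG00000026784, chromosome 2, 22895522–22940266 on the plus strand of GRCm38), had 128, 93.1, 88.1, 77.2, 96.2 and 99.6 normalized counts in Ctrl and 96.2, 105, 94.5, 98.0 and 84.7 in β-Mfn1/2DKO. The latter lay inside the range of Ctrl, with a log2 difference of −0.02 (SE 0.15, adjusted p = 0.95). Pdss2, the other subunit (ENSMUSG00000038240, chromosome 10, 43221486–43464882, plus strand), had 349, 286, 319, 351, 399 and 327 in Ctrl and 371, 374, 377, 403 and 369 in β-Mfn1/2DKO. Its β-Mfn1/2DKO libraries stood above 5 of the 6 Ctrl libraries, with a log2 difference of 0.16 (SE 0.09, adjusted p = 0.23).

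Coq2, which joins the tail to the ring (ENSMUSG00000029319, chromosome 5, 100654723–100675140, minus strand), rose. Ctrl libraries had 2611, 2691, 2805, 2585, 2836 and 2727 normalized counts, and β-Mfn1/2DKO libraries had 3202, 3248, 3153, 3287 and 2882. The groups did not overlap, although β-Mfn1/2DKO replicate 5 stood only just above the highest Ctrl library. On the log2 scale it differed by 0.22 (SE 0.05, adjusted p = 0.0047, 1.16-fold), the smallest of the 3 that were called.

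Both methyltransferases of the ring rose. Coq5, the C-methyltransferase (ENSMUSG00000041733, chromosome 5, 115279666–115296972, plus strand), had 861, 990.0, 1064, 947, 1067 and 1108 normalized counts in Ctrl and 1273, 1337, 1317, 1358 and 1275 in β-Mfn1/2DKO. Its lowest β-Mfn1/2DKO library stood above the highest of all 15 other libraries, 1172 in β-Mfn1KO replicate 3. On the log2 scale it differed by 0.38 (SE 0.08, adjusted p = 0.0011). Coq3, the O-methyltransferase (ENSMUSG00000028247, chromosome 4, 21879673–21912162, plus strand), had 221, 178, 216, 210.5, 175 and 143 in Ctrl and 239, 256, 245, 256 and 302 in β-Mfn1/2DKO. These groups did not overlap either, and β-Mfn1/2DKO replicate 5 stood above its own group. On the log2 scale it differed by 0.45 (SE 0.12, adjusted p = 0.013, 1.36-fold). Coq3 was the least stable of the 3: without β-Mfn1/2DKO replicates 4 and 5, the acinar-rich libraries, its adjusted p was 0.073, with the authors' own normalization factors it was 0.069, and with counts drawn down to the smallest library it was 0.062. Coq2, Coq3 and Coq5 were the members whose β-Mfn1/2DKO libraries all lay above all Ctrl libraries, as 10.5% of expressed genes did.

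The hydroxylases of the ring did not pass the test. Coq6 (ENSMUSG00000021235, chromosome 12, 84361657–84373796, plus strand) had a mean of 608 ± 109 normalized counts in Ctrl (SD, n = 6; lowest 417, median 628, highest 735) and 593, 636, 592, 553 and 543 in β-Mfn1/2DKO. On the log2 scale it differed by −0.06 (SE 0.09, adjusted p = 0.73), and Ctrl had the wider spread. Coq7 (ENSMUSG00000030652, chromosome 7, 118509659–118533356, minus strand) had 716 to 936 in Ctrl (median 826) and 757, 976, 770.5, 823 and 637 in β-Mfn1/2DKO. Its β-Mfn1/2DKO libraries held values above and below the whole range of Ctrl, with a log2 difference of −0.04 (SE 0.10, adjusted p = 0.81).

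Coq4, Coq8a and Coq9 had higher means in β-Mfn1/2DKO that did not pass the threshold. Coq8a (ENSMUSG00000026489, chromosome 1, 180165238–180199602, minus strand) had 1049.6, 1223, 1301, 1487, 1673 and 1298 normalized counts in Ctrl and 1681, 1487, 1538, 1569.6 and 1677 in β-Mfn1/2DKO, with a log2 difference of 0.25 (SE 0.10, adjusted p = 0.096). Coq4 (ENSMUSG00000026798, chromosome 2, 29787493–29797935, plus strand) had 331, 330.0, 389, 382, 431 and 367 in Ctrl and 403, 460.0, 439, 417 and 381 in β-Mfn1/2DKO, with 0.18 (SE 0.08, adjusted p = 0.17). Coq9 (ENSMUSG00000031782, chromosome 8, 94838321–94854895, plus strand) had 1951 to 2246 in Ctrl (median 2016) and 2244, 2388, 2161, 2265 and 2092 in β-Mfn1/2DKO, with 0.12 (SE 0.05, adjusted p = 0.12). The groups overlapped for each of these 3 genes. Unadjusted p-values were under 0.05 for 6 of the 10 members, against 7974 of the 28632 genes tested and 6803 of the 15267 expressed genes.

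The number of called members depended on the scaling. When libraries were scaled by their total counts, 7 of 10 members were higher, among them Pdss2, Coq4, Coq8a and Coq9, but this scaling also moved the median log2 fold change of all genes from 0.06 to 0.19 and the split of calls over all genes from 2745 higher and 1965 lower to 5393 higher and 949 lower. The log2 fold changes of Pdss1, Coq6 and Coq7 changed sign with it, to 0.12, 0.08 and 0.09. Without Ctrl replicate 5 Coq8a was called at 0.32 (adjusted p = 0.024), and without β-Mfn2KO replicate 3, which belongs to neither group but enters the scaling and the fit, Coq9 was called at 0.14 (adjusted p = 0.043).

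**Figure D2:**
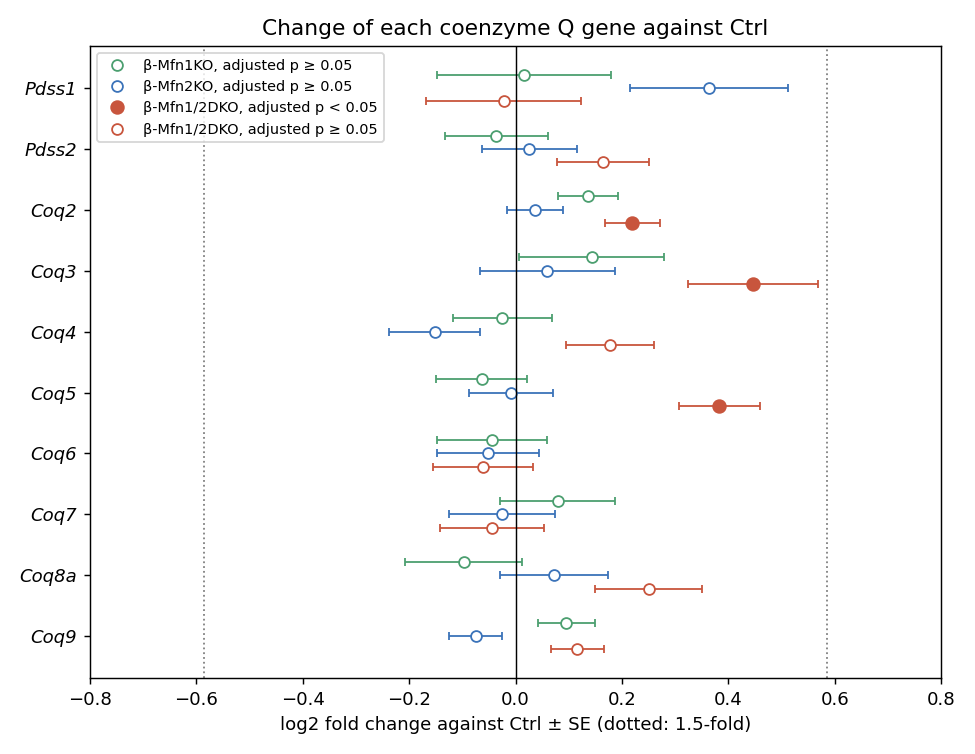
Log2 fold change against Ctrl (x axis, points ± SE) of each gene (y axis) in β-Mfn1KO, β-Mfn2KO and β-Mfn1/2DKO islets. Filled points have an adjusted p under 0.05, which holds for Coq2, Coq3 and Coq5 in β-Mfn1/2DKO alone, and no point lies beyond the dotted lines at 1.5-fold.

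Several members share exon bases with a gene on the opposite strand, and the strand setting of the authors' counting is not given in the sources used here, so their counts are uncertain. Coq4 overlapped Trub2 over 921 bases, 27.1% of its exon bases, and Trub2 had 252% of its mean count. Pdss1 overlapped Abi1 over 194 bases (3079% of its count) and a pseudogene of 0.487% of its count over 207, and Coq8a overlapped Cdc42bpa over 366 bases (295%). Coq6 overlapped Fam161b over 128 bases and Coq9 overlapped Ciapin1 over 38. Coq2, Coq3, Coq5 and Coq7 shared no exon bases with another gene, and Pdss2 shared 33 with a gene of 0.702% of its count.

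RefSeq (GRCm38.p6) gave promoter windows for 9 of the 10 members, all but Coq5. For the other members that rose, the stretch from 250 to 31 bases before the annotated start is shown, as both genes were called higher against Ctrl, with the letters of a motif match in capitals. The Coq2 stretch lies at chr5:100674287-100674506 on the minus strand and that of Coq3 at chr4:21879396-21879615 on the plus strand, before the more upstream of its annotated starts. The Coq2 stretch lies inside the gene span given above, 100654723–100675140. Its RefSeq start, from which positions are counted here, is thus downstream of the outermost start in GENCODE.
Coq2: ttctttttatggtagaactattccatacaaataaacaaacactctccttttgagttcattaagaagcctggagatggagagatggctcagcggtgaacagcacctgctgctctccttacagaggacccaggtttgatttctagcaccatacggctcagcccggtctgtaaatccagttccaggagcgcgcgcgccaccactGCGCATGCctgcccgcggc
Coq3: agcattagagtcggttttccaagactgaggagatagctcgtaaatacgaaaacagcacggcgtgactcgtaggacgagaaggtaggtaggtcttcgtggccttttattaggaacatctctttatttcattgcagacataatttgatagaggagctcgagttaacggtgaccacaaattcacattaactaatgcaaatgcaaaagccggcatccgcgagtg
The capitals in Coq2 mark GCGCATGC, 49 bases before the start, which on the other strand reads GCATGCGC, the core of the motif of NRF1, a transcription factor of nuclear genes for mitochondrial proteins. Windows of 300 bases, from 250 before to 50 after each start, were searched on both strands, and 2.71% of 32851 windows held this motif. The ETS and GABP core CCGGAAG (8.86% of all windows) was found for Pdss1, Pdss2 and Coq6, the E-box CACGTG (7.15%) for Coq4 and the YY1 core AAGATGGC (2.75%) for Coq9. No member's window held the CREB and ATF site TGACGTCA (1.79%), the ATF4 composite site TGATGCAA (0.895%) or the ERR site TCAAGGTCA (0.423%). No searched motif contained another, and a match describes the letters of the window alone.

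Loss of either mitofusin alone was compared with Ctrl to see whether the changes needed both genes to be deleted. In β-Mfn2KO islets 0 of 10 members were called, by edgeR or DESeq2, beside 0.0559% of all genes called by edgeR in either direction, and 1 member, Pdss1, had an unadjusted p under 0.05. Pdss1 had 107, 114, 145, 118 and 140.0 normalized counts there, all above 5 of the 6 Ctrl libraries, with a log2 difference of 0.36 (SE 0.15, adjusted p = 0.93). The other 9 ran from −0.15 for Coq4 (SE 0.09) to 0.07 for Coq8a (SE 0.10). In β-Mfn1KO islets 0 of 10 members were called, by edgeR or DESeq2, beside 0.0279% of all genes, and 1 member, Coq2, had an unadjusted p under 0.05. Coq2 had 2987, 2923, 2665 and 3335 there, with a log2 difference of 0.14 (SE 0.06, adjusted p = 0.63). The other members ran from −0.10 for Coq8a (SE 0.11) to 0.14 for Coq3 (SE 0.14).

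The step from 1 deleted mitofusin to both was read against each knockout. These comparisons share the β-Mfn1/2DKO libraries with the comparison above. Mfn2 mRNA, of a gene floxed in both groups, was higher in β-Mfn1/2DKO than in β-Mfn2KO by 0.40 on the log2 scale (SE 0.08, adjusted p = 0.0011). The cause of that difference was not tested. Against β-Mfn2KO, 5 of 10 members were higher in β-Mfn1/2DKO and 0 lower, beside 7.09% of all genes and 12.9% of expressed genes that were higher. Coq5 was 0.39 higher on the log2 scale (SE 0.08, adjusted p = 0.0016), with 931, 882, 1055, 1082 and 1038 normalized counts in β-Mfn2KO. Coq3 had 0.39 (SE 0.13, adjusted p = 0.044), with 181, 192, 186, 206 and 222 in β-Mfn2KO. Coq4 had 0.33 (SE 0.09, adjusted p = 0.012), with 307, 344, 328, 372 and 317 in β-Mfn2KO. For Coq3, Coq4 and Coq5 all β-Mfn2KO libraries lay below the β-Mfn1/2DKO libraries, as they did for 1758 of 15267 expressed genes. Coq9 had 0.19 (SE 0.05, adjusted p = 0.015) and Coq2 had 0.18 (SE 0.05, adjusted p = 0.027), and in both the groups overlapped. The call of Coq3 was lost without β-Mfn2KO replicate 1, 2, 3 or 4 or β-Mfn1/2DKO replicate 2, 4 or 5 (adjusted p 0.052 to 0.12), and that of Coq2 without β-Mfn2KO replicate 1 or 2 (0.061 and 0.082). Pdss1 had the most negative difference, −0.39 (SE 0.15, adjusted p = 0.092). Its 5 β-Mfn1/2DKO libraries all lay below the β-Mfn2KO libraries, as they did for 1507 of all 28632 genes. That share includes genes of low counts and was not counted over the expressed genes alone, unlike the one above.

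Against β-Mfn1KO, 2 of 10 members were higher, beside 9.67% of all genes and 2670 of the 15267 expressed genes. These were Coq5, by 0.45 on the log2 scale (SE 0.09, adjusted p = 0.00066), and Coq8a, by 0.35 (SE 0.11, adjusted p = 0.033). Coq5 stood at 927, 896, 1172 and 851 in β-Mfn1KO, and Coq8a at 977, 1251, 1242 and 1530.2, where the highest library overlapped. For Coq5 and Pdss2 all β-Mfn1KO libraries lay below the β-Mfn1/2DKO libraries, as they did for 2461 of 15267 expressed genes. Without β-Mfn1KO replicate 1, 2 or 3 or β-Mfn1/2DKO replicate 5 the call of Coq8a was lost (adjusted p 0.065 to 0.16), and with the authors' factors its log2 fold change was 0.14. Coq2 and Coq3, which rose against Ctrl and against β-Mfn2KO, had log2 fold changes of 0.08 (SE 0.06, adjusted p = 0.40) and 0.30 (SE 0.14, adjusted p = 0.15) against β-Mfn1KO. Whether the effect of both deletions exceeded the sum of the log2 effects of each was tested as an interaction. It called 1 of 10 members, Coq5, at 0.46 (SE 0.12, adjusted p = 0.020). In that direction it called 2.88% of all genes and 812 of the 15267 expressed genes. The call of Coq5 in the interaction was lost without β-Mfn1KO replicate 2 or 4, with adjusted p-values of 0.0535 and 0.05002. It was also lost with the authors' factors (adjusted p = 0.061) and with depth as a covariate (adjusted p = 0.15).

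Sequencing depth went with genotype, and its part in the comparison of β-Mfn1/2DKO with Ctrl cannot be told apart from genotype, as no Ctrl library was as deep as any β-Mfn1/2DKO library. Within β-Mfn2KO, replicates 4 and 5 had 56.0 and 59.5 M counts and the other 3 had 15.1 to 18.9 M. Both deep libraries were male, while the others were female except replicate 3, and replicate 4 had 0.683% acinar counts. Depth is thus not separate from sex and acinar share in this contrast. In these libraries of 1 genotype the deep pair lay above the others for Coq2 (2808 and 2981 against 2625 to 2743), Coq3 (206 and 222 against 181 to 192) and Coq7 (869.7 and 895 against 623 to 808), and below them for Coq9. Of the expressed genes, 15.8% lay above and 14.2% below in the same way. Coq5 overlapped (1038 and 1082 against 882 to 1055). With a depth class (above 40 M counts) as a covariate, which rests on those 2 libraries, 0 members were called against Ctrl. Over all 28632 genes, the calls fell with it from 2745 higher and 1965 lower to 425 and 303. Coq5 then had a log2 difference of 0.23 (adjusted p = 0.47), Coq2 0.12 (adjusted p = 0.63) and Coq3 0.24 (adjusted p = 0.70). With counts drawn down at random to 12400687 per library, Coq5 kept a log2 difference of 0.40 (adjusted p = 0.0007) and Coq2 of 0.20 (adjusted p = 0.019), and Coq3 had 0.42 (adjusted p = 0.062). Among deep libraries alone, 5 β-Mfn1/2DKO against 2 β-Mfn2KO, Coq5 was higher by 0.36 (adjusted p = 0.0097) and Coq9 by 0.29 (adjusted p = 0.034), and Coq2 (0.17), Coq3 (0.32) and Coq4 (0.34) were not called.

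**Figure D3:**
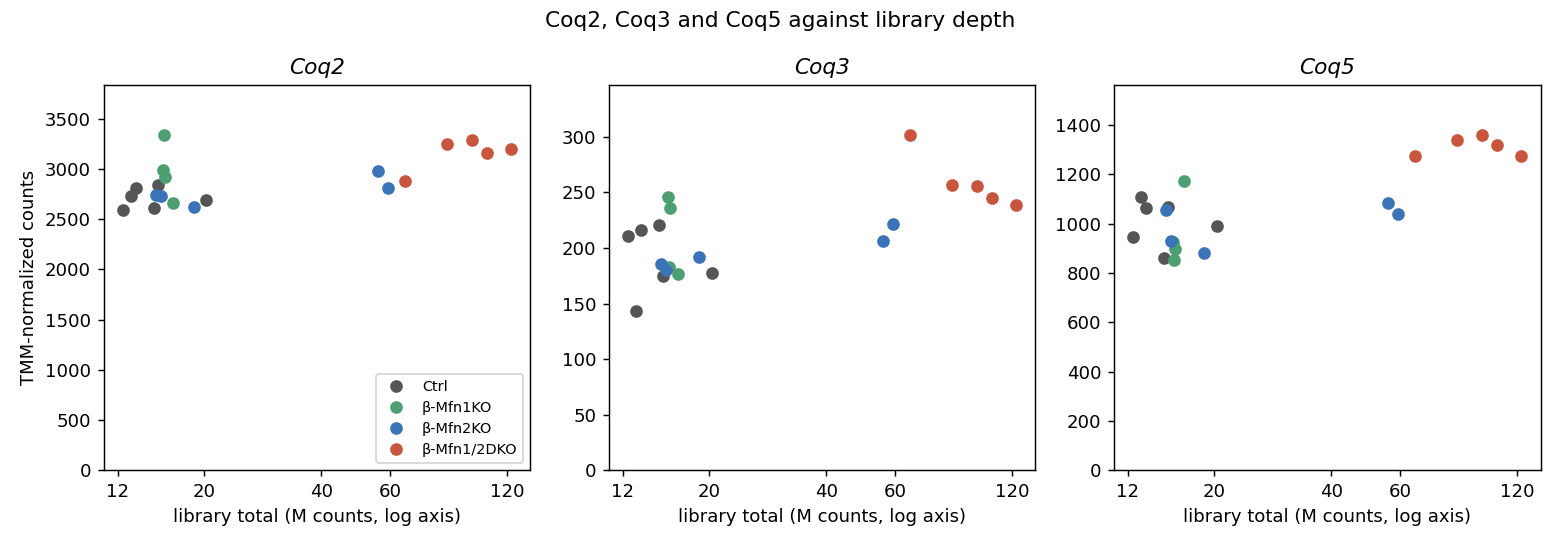
Normalized counts (y axis from 0) of Coq2, Coq3 and Coq5 against the library total in M counts (x axis, log scale), 1 point per library, coloured by genotype. The 2 deep β-Mfn2KO libraries sit at 56.0 and 59.5 M, next to the shallowest β-Mfn1/2DKO library at 65.5 M, and for Coq5 they stand at 1082 and 1038, below its 1275.

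Within genotypes, the members' levels were weakly related from library to library. After each group's mean was taken out, the 45 pairs of members had a median Pearson correlation of 0.11 over the 20 libraries, and 26 pairs were positive. The highest was 0.60 between Coq2 and Coq7, and the lowest was −0.63 between Pdss1 and Coq8a. These are descriptions over libraries that share depth and cell makeup. The mean z-score of the 10 members was −0.80 to 0.33 in Ctrl, −0.32 to 0.16 in β-Mfn1KO and −0.76 to 0.22 in β-Mfn2KO. In β-Mfn1/2DKO it was 0.594, 1.148, 0.597, 0.813 and 0.142, so replicate 5 overlapped the upper end of each other group and the other libraries stood above all 15 libraries of those groups.

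Around the pathway, the genes of the tail supply that passed the test were lower. Of 9 genes of the mevalonate pathway and its prenyl products, 3 were lower in β-Mfn1/2DKO than in Ctrl and 0 higher, with a median log2 fold change of −0.18 and 1 of 9 above 0. Over all genes tested 6.86% were lower, and 12.0% of the expressed genes, beside the 17.3% of expressed genes that were higher. Hmgcs1, which makes HMG-CoA, fell from 3201 ± 239 to 2460.0 ± 227 normalized counts (SD, n = 6 and 5; log2 fold change −0.38, adjusted p = 0.0009). Pmvk, the phosphomevalonate kinase, fell from a mean of 1501 (range 1326 to 1688) to 1233 ± 72.3 (−0.29, adjusted p = 0.0021), and with total-count scaling it had −0.14 (adjusted p = 0.14). Idi1, the isomerase of the C5 unit, fell from 1214 ± 120 to 870.4 ± 149 (−0.48, adjusted p = 0.0023), and Mvk, the mevalonate kinase, had −0.23 (adjusted p = 0.083). The list is shared with cholesterol synthesis.

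Of 7 genes of the ring precursor and of the ferredoxin system, 2 were higher and 1 lower, beside 17.3% of expressed genes higher and 12.0% lower. Fdx1l, the mitochondrial ferredoxin now called Fdx2, rose from 526.5 ± 70.4 to 720.1 ± 36.1 normalized counts (0.45, adjusted p = 0.0035), and with the depth class as a covariate it had 0.03. Fdx1, the other ferredoxin, rose from 709.5 ± 63.3 to 833 ± 23.1 (0.23, adjusted p = 0.036), a call lost without Ctrl replicate 3 or 4 or β-Mfn1/2DKO replicate 5 (adjusted p 0.063 to 0.095), and it had −0.02 with the depth class. Tat, the tyrosine aminotransferase, fell from 1869 ± 266 to 1239 ± 342 (−0.59, adjusted p = 0.0047). Fdxr, the reductase of both ferredoxins, had 0.21 (adjusted p = 0.11). Hpd and Aldh3a1 were at 0 in all Ctrl libraries and at most at 0.922 and 1.41 normalized counts in β-Mfn1/2DKO, so no fold is given. Over the 4 genes of this list that were expressed the median was 0.22.

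Of 7 accessory proteins, 1 was higher and 1 lower, beside 17.3% of expressed genes higher and 12.0% lower. Coq10b, a CoQ-binding protein, fell from 1179 ± 199.5 to 838 ± 130.5 normalized counts (−0.49, adjusted p = 0.0059), and without β-Mfn1/2DKO replicates 4 and 5 it had −0.35 (adjusted p = 0.091). Pptc7, a mitochondrial phosphatase, had −0.13 (adjusted p = 0.11) and Coq8b, the paralogue of Coq8a, −0.11 (adjusted p = 0.20). The median of the list was −0.07.

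Of 10 genes for enzymes outside complexes I and II that pass electrons to CoQ, 3 were lower and 2 higher, with a median of −0.02, beside 12.0% of expressed genes lower and 17.3% higher. Gpd2, the mitochondrial glycerol-3-phosphate dehydrogenase, fell from 6547 ± 427 to 4037 ± 301 normalized counts (−0.70, adjusted p = 0.0012), and its log2 fold change was 0.01 with the depth class as a covariate. Sqor, the sulfide quinone reductase, fell from 2190.0 ± 172 to 1816 ± 118 (−0.27, adjusted p = 0.0039), and with total-count scaling it had −0.13 (adjusted p = 0.19). Prodh, the proline dehydrogenase, rose from 49.2 ± 16.5 to 100.2 ± 20.1 (1.02, adjusted p = 0.0082). Chdh, the choline dehydrogenase, rose from 38.9 ± 13.9 to 146 ± 152 (1.89, adjusted p = 0.016), but without β-Mfn1/2DKO replicates 4 and 5 it had 0.32 (adjusted p = 0.70), and without replicate 5 alone 1.10 (adjusted p = 0.12). Without both libraries Sqor had −0.20 (adjusted p = 0.065) and Prodh 0.82 (adjusted p = 0.072). Nqo1, a quinone reductase named after its values were seen, fell from 317 ± 78.6 to 212 ± 43.1 (−0.57, adjusted p = 0.021), a call lost without Ctrl replicate 3 or 5 or β-Mfn1/2DKO replicate 1, 3 or 5 (adjusted p 0.053 to 0.068).

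Of 13 subunits of complexes II and III, which take electrons to and from CoQ, 3 were lower and 0 higher, with a median of −0.09 and 2 of 13 above 0, beside 12.0% of expressed genes lower. Sdhc, a membrane anchor of complex II, fell from 3616 ± 197 to 2903 ± 187 normalized counts (−0.32, adjusted p = 0.00022). Uqcrb fell from 1994 ± 106 to 1454 ± 122 (−0.45, adjusted p = 0.00026) and Uqcr11 from 2498 ± 225 to 1864 ± 239.5 (−0.42, adjusted p = 0.0021), both small subunits of complex III. With the authors' factors Uqcr11 had −0.13 (adjusted p = 0.34). Uqcrfs1, the iron-sulfur subunit, had −0.15 (adjusted p = 0.057). In the single knockouts 0 genes of these 5 lists were called against Ctrl, by edgeR, with an unadjusted p under 0.05 for 1 enzyme that reduces CoQ in β-Mfn2KO and for 1 gene of the tail supply, 1 of the ring list and 4 of complexes II and III in β-Mfn1KO. With the depth class as a covariate, 2 genes of complexes II and III and 0 of the other lists were called in β-Mfn1/2DKO. Of all 28632 genes, 425 were higher and 303 lower with it. Overlap with genes on the other strand was looked up for the 10 members alone.

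**Figure D4:**
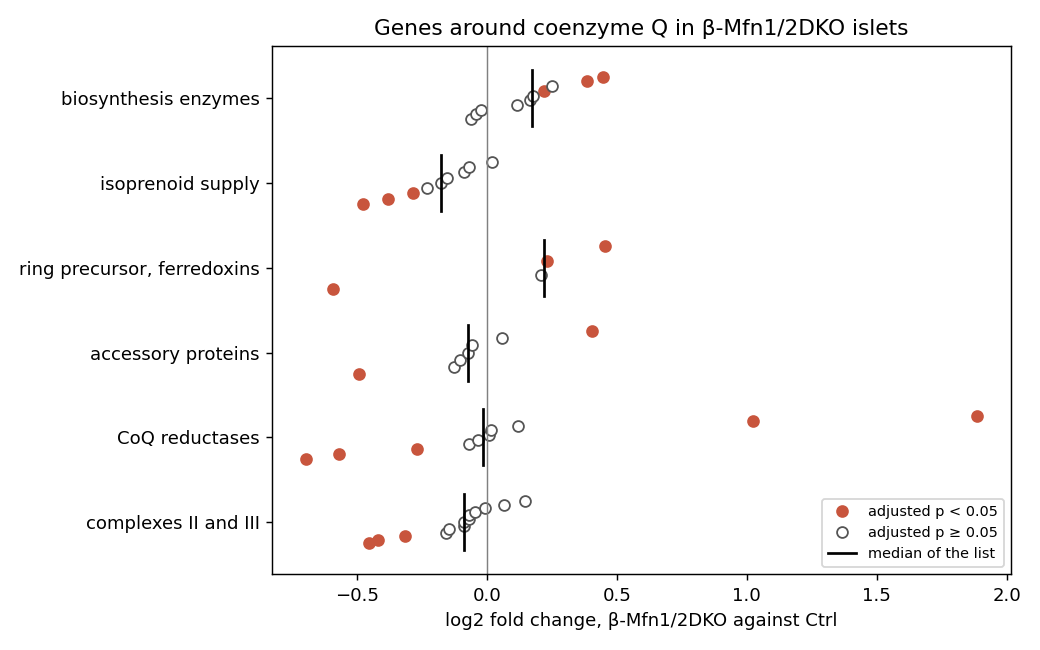
Log2 fold change in β-Mfn1/2DKO against Ctrl (x axis) of the 10 biosynthesis genes and of 5 lists of genes around CoQ (y axis), 1 point per gene. Filled points have an adjusted p under 0.05 and black bars are list medians, which run from −0.18 for the isoprenoid supply to 0.22 for the ring precursor and ferredoxin genes, where 3 genes of low counts are left out.

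The genes whose level over the 20 libraries most resembled the members' mean z-score were Twistnb (Pearson's r = 0.89), Nmnat3 (0.88), Rnf220 (0.88), Sgf29 (0.87) and Tars2 (0.87). Those most opposed were Tpp2 (−0.87), Maml3 (−0.84), Syt14 (−0.83), Ranbp2 (−0.83) and Edem3 (−0.83). These correlations describe libraries that share genotype and depth.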

How the data were processed

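RNA of whole islets was sequenced in 20 libraries, grouped by the genotype in the labels. Per the labels and the study's methods, the authors trimmed reads with cutadapt 2.3, checked them with FastQC 0.11.8, aligned them to GRCm38 with STAR 2.6.1b, counted them per gene with RSEM 1.3.1 and normalized them with DESeq2 1.26.0. The deposited count table held whole-number counts for 28632 genes, and genes at 0 in all samples had been removed by the authors. The second deposited table holds signal values that the authors made by dividing the counts by gene-wise normalization factors. It was used to recover those factors. The strand setting is not given in the sources used here. The study gives the number of libraries per genotype as a number of mice, with littermate controls, and the labels do not say which libraries came from which litter.

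Gene IDs were matched to GENCODE M21 (28561 of 28632). The counts were tested with edgeR 4.0.16 (R 4.3.3; TMM, quasi-likelihood, all 20 libraries in 1 fit without covariates), with Benjamini-Hochberg adjustment over all genes and a threshold of 0.05. Every test is two-sided. Standard errors belong to log2 fold changes. Normalized counts were scaled to the mean effective library size, and z-scores and figures were made in Python 3.11.15 with NumPy 2.4.6, pandas 2.3.3 and Matplotlib 3.10.9. The fit was tested on simulated data. The alternatives were DESeq2 1.42.0, other scalings, a filter on low counts, fits to the compared groups alone, covariates for sex, acinar score and depth class, a block for the replicate number, counts drawn down, a 1.5-fold limit and left-out libraries. Fits to deep or shallow libraries alone were added after seeing the data.

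The members and lists were chosen with earlier results of these data known. All 10 members are named, with at most 4 genes per list by smallest adjusted p in β-Mfn1/2DKO against Ctrl, the 5 genes at each end of the correlation with the members' mean z-score, and the targets Mfn1 and Mfn2. The values of 1 gene that this rule names are not reported here.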

Additional observations from a re-analysis of the deposited data

Results flagged for a closer look

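In 3 of 40 sets of a gene in a group, the highest library stood apart from its own group by the 95% critical value of Dixon's test, which chance alone passes in about 1 of 20 sets. Pdss2 had 402.89 normalized counts in β-Mfn1/2DKO replicate 4, against 376.79 in the next library. Coq3 had 301.55 in β-Mfn1/2DKO replicate 5, against 256.29 in the next. Coq4 had 396.4 in β-Mfn1KO replicate 4, against 357.3 in the next.

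Coq5 was the member with a called interaction of the deletions, at a log2 value of 0.4557 (edgeR, adjusted p = 0.020). With the depth class as a covariate it was 0.37 (adjusted p = 0.15), and with the authors' factors its adjusted p was 0.061. Depth cannot be told apart from genotype here, as every β-Mfn1/2DKO library was deeper than any other. The log2 fold change of Coq5 against Ctrl was −0.01 in β-Mfn2KO, −0.06 in β-Mfn1KO and 0.38 in β-Mfn1/2DKO.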

How the results depend on the processing

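Against Ctrl, 3 members were called in β-Mfn1/2DKO and 7 with total-count scaling. The count was 2 with counts drawn down or without β-Mfn1/2DKO replicates 4 and 5. Coq3 also lost its call with the authors' factors and with the block for the replicate number. With the depth class as a covariate or a 1.5-fold limit the count was 0, and leaving out 1 library gave 3 to 4. Over all 28632 genes, 2745 were higher here, 5393 with total-count scaling, 1900 with counts drawn down and 425 with the depth class. Against β-Mfn2KO the count of 5 became 3 with the authors' factors, 1 with counts drawn down, 1 with the depth class and 2 among deep libraries. It was 0 with the fold limit and 3 to 5 when 1 library was left out. Over all genes the 2030 calls higher became 1382 with the authors' factors, 1421 with counts drawn down, 888 with the depth class and 1221 among deep libraries. Against β-Mfn1KO the count of 2 became 7 with total-count scaling and 0 with the depth class or the fold limit. It was 1 with DESeq2's size factors, the authors' factors, the acinar score, counts drawn down or without β-Mfn1/2DKO replicates 4 and 5. Leaving out 1 library gave 1 to 2. Over all genes the 2770 calls higher became 5542 with total-count scaling and 685 with the depth class. They were 1846 to 2411 in the settings that gave 1. The interaction's count of 1 became 2 with total-count scaling or the low-count filter. It was 0 with the authors' factors, the depth class or the fold limit, and 0 to 1 when 1 library was left out. Over all genes its 826 calls higher became 1855 with total-count scaling, 516 with the authors' factors and 468 with the depth class. With the low-count filter they were 1092 of 15267. In both single knockouts the count was 0 in every alternative run. The depth class rests on 2 β-Mfn2KO libraries, and the cause of the other changes was not tested.

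Changes of sign were seen in members near 0. Pdss1 against Ctrl moved to 0.119 with total-count scaling, 0.0349 with the authors' factors, 0.0310 with the acinar score and 0.0410 without β-Mfn1/2DKO replicates 4 and 5, and ran from −0.0769 to 0.0724 when 1 library was left out. Coq6 moved to 0.0755 with total-count scaling and 0.0174 without these replicates, and ran from −0.145 to 0.000434 when 1 was left out. Coq7 moved to 0.0943 and 0.0501 in the same settings, and ran from −0.104 to 0.0240. With the depth class, Fdx1 moved to −0.0176 and Gpd2 to 0.00925.

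Among the pathway lists in β-Mfn1/2DKO, the 3 called genes of the tail supply and the 3 of complexes II and III became 5 with DESeq2, DESeq2's size factors or the low-count filter, and those of complexes II and III also with counts drawn down. The 2 accessory genes became 4 with DESeq2 and 1 without β-Mfn1/2DKO replicates 4 and 5, and the 5 enzymes that reduce CoQ became 2 without them. With the fold limit the counts were 0, 1, 0, 3 and 0 for tail supply, ring, accessory, reducing enzymes and complexes II and III, and with the depth class they were 0 in each but the last.

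The replicate numbers were not taken as pairs, since not every same-numbered pair of libraries across groups had correlated deviations above 0.1: 16 of 27 did (mean 0.125, lowest −0.126), against 28 of 122 other-numbered pairs (mean −0.027). By these values same-numbered libraries were the more alike. By the labels, libraries numbered 1 or 2 were all female and those numbered 4 or 5 all male, so most same-numbered pairs also shared sex. Those numbered 3 were of both sexes. What part sex or another shared factor had in the likeness was not tested. With the number as a replicate block, 2 members were called against Ctrl, where Coq3 was the one lost (0.37, adjusted p = 0.052), 5 against β-Mfn2KO, 2 against β-Mfn1KO and 1 in the interaction.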
